A study of Saccharomyces cerevisiae with 58 samples.

Results

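The recovery phase of the rpb6 mutant in hydrogen peroxide (H2O2) is described here. It is the contrast of the arrays of 35 and 45 min of exposure with the arrays of 10 and 15 min. These 4 arrays, chosen by strain and time as labelled, belong to the mutant's course of 7 arrays and to a series of 58. The study followed mRNA abundance in H2O2 and in methyl methanesulfonate (MMS), and mRNA decay after the transcription inhibitor 1,10-phenanthroline, in a wild type and a mutant of budding yeast. Total RNA was copied from poly(T) primers and hybridised to Affymetrix Yeast 2.0 arrays, and the deposited values are log2 levels. The question is which genes went back towards their starting level while the peroxide response ended, which stayed changed, and which began to change only late.

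The mutant (strain 212) carries rpb6 Q100R, a substitution of glutamine by arginine in a subunit of RNA polymerase II. Both strains are MATalpha ura3-52 his3delta200 lys2delta201 ade2, and the wild type (strain 211) is the parent. In the mutant the chromosomal RPB6 is replaced by HIS3, and RPB6 is carried on a centromeric LEU2 plasmid. That plasmid copy is the only one listed, so it is the copy with Q100R. The methods list neither the replacement nor the plasmid for the wild type. Cells grew in YPD at 30 °C to mid log phase and received 0.3 mM H2O2 at 0 min, and both strains were sampled at that point, after 5, 10 and 15 min, and again after 25, 35 and 45 min. The mutant grows more slowly than the wild type. Each course analysed here came from 1 culture with 1 array per time, so the 10 and 15 min arrays (early) and the 35 and 45 min arrays (late) stand in for replicates, and p-values measure only the spread between such neighbours.

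Rpb6 is shared by the 3 nuclear RNA polymerases and helps to hold the Rpb4/7 heterodimer, which follows transcripts out of the nucleus and acts in their decay. Peroxide oxidises the transcription factor Yap1, which then stays in the nucleus and, with Skn7, turns on peroxiredoxins, thioredoxins, glutathione enzymes and drug exporters. The Msn2/4 factors drive a general stress program that includes trehalose and glycogen enzymes. In the usual account the burst of peroxide-induced mRNA is transient: the enzymes remove H2O2, Yap1 is reduced, and the transcripts fall again. The study proposes that destabilisation of induced mRNAs has a part in such fast relaxation. No cause of the fall was tested here.

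The 7 mutant arrays had medians between 9.90 and 9.95 over 5498 S. cerevisiae probe sets with 1 annotated gene. Probe sets of S. pombe on the same arrays, which read background, moved by at most 0.443 between the phases on the log2 scale. Of the S. cerevisiae probe sets, 97% lay above the level that 95% of the S. pombe probe sets do not reach, 4.97. The early arrays correlated at 0.9976 with each other and the late arrays at 0.9961, against 0.9818 between 10 and 45 min. RPO26, the gene of Rpb6, stood at 12.38 and 12.51 early and at 12.60 and 12.49 late (limma adjusted p = 0.612), and RPB4 and RPB7 did not pass either (0.716 and 0.275). The 5 MATalpha markers lay between 10.8 and 13.97 on every mutant array and the 7 MATa markers between 6.1 and 8.0. HIS3 was measured at 10.6 to 11.1 in the mutant and at 10.6 to 11.5 in the wild type, although the methods list his3delta200 for both, so it does not tell the strains apart. The 3′ minus 5′ signal of the quality control gene SPT15 was 1.47 to 1.51 early and 1.87 to 1.97 late in the mutant, and 1.97 at 0 min. Its part in the results was not tested.

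Between the early and the late phase, 10 of 25 probe sets (22 genes) of Yap1-linked detoxification and export fell. So did 5 of 28 genes of peroxide and thiol defence. Rises were called for 8 of 26 G2/M genes, 8 of 23 M/G1 genes and 8 of 28 of hexose transport and glycolysis. Each of these counts changed when single arrays were left out, and the values stand with the lists. Of 5498 probe sets, 196 rose (3.56%) and 209 fell (3.8%) at a limma adjusted p below 0.05, with 1091 at an unadjusted p below 0.05. Of the 405 calls, 164 were larger than 0.81 on the log2 scale, the response threshold of the study, and the median size was 0.68 on the log2 scale. The late arrays were both above the early arrays for 30.9% of the probe sets and both below for 23%. Against the single 0 min array, 205 probe sets (3.73%) were higher and 80 (1.46%) lower early, and 23 (0.418%) were higher and 6 (0.109%) lower late. The early count of 285 was 103 without the 10 min array and 149 without the 15 min array, and the late count of 29 was 7 without the 35 min array and 4 without the 45 min array. The count of 405 fell to 109 without the 10 min array, to 187 without the 15 min array, to 301 without the 35 min array and to 138 without the 45 min array. All 405 differences kept their sign in these fits, and 97 calls were made in each of them.

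Genes were grouped by their mean early and late change from 0 min, with the study's threshold, 0.81 on the log2 scale, as the limit. The study used it for single time points of the wild type, and here it was applied to phase means of the mutant. Returned genes were past it early and no longer late, stayed genes were past it on the same side in both phases, and started-late genes were past it only late. Returned genes were 116 up and 31 down, stayed genes 39 up and 12 down, and started-late genes 63 up and 14 down. These 275 probe sets were chosen on the values described, and both changes share the 0 min array, so their early and late levels are a description and carry no test. Few members of the stayed and started-late groups were called by limma for the late phase against 0 min. The calls were 10 of 39 stayed up and 3 of 12 stayed down. Among the started-late genes they were 9 of 63 up and 3 of 14 down. The limit passes through a continuous range. CFD1, with an early change of 0.83, is the smallest inside, and PHM6, with 0.80, lies just outside. APE1, with a late change of 0.80, counts as returned and GRX2, with 0.83, as stayed. TDA1 entered the late group at 0.81, and YFL067W missed it at 0.80. The groups also rest on the single 0 min array. HSP30 counts as returned with 11.25 and 11.16 late, against 10.78 at 0 min, where the wild type stood at 8.33.

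**Figure D1:**
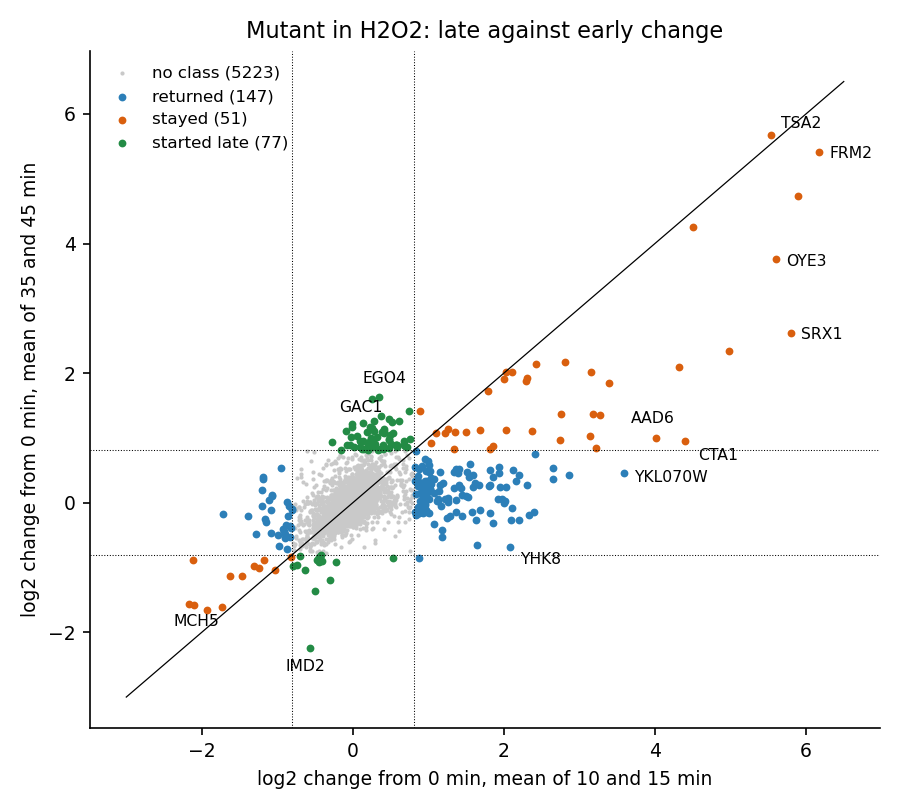
Each point is 1 of 5498 probe sets in the mutant, with its log2 change from 0 min early (mean of 10 and 15 min, x axis) and late (mean of 35 and 45 min, y axis), coloured by group. Dotted lines mark the limit of 0.81 and the solid line equal change. Most early rises lie far below the solid line, while TSA2 lies on it and IMD2 stands apart at the bottom with a late change of -2.25.

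The largest fall among the returned genes was that of YKL070W, an uncharacterised reading frame. It stood at 6.22 at 0 min, at 9.82 and 9.79 early, and at 6.87 and 6.48 late. Both late values lay far below both early values and close to the start, a difference of -3.14 ± 0.14 (SE, limma adjusted p = 0.000358). ATR1 (YML116W), a multidrug exporter and Yap1 target, was at 10.56 at 0 min, at 13.10 and 12.81 early, and at 10.85 and 9.97 late. It fell by 2.54 ± 0.27 (adjusted p = 0.00297) and ended below its start. YHK8, another transporter of the same kind, peaked at 10.33 at 5 min and was at 6.73 and 6.74 late, under its 0 min level of 7.42. YIL165C and NIT1, the neighbouring parts of a split nitrilase gene, fell by 2.51 and 2.46 (adjusted p = 0.00117 each), and LTO1, which serves in iron-sulfur protein assembly, fell by 2.35 (adjusted p = 0.00174). ARR3, an arsenite exporter, fell by 2.28 (adjusted p = 0.00228). YKL070W, ATR1, YIL165C, NIT1, LTO1 and ARR3 kept their call without each of the 4 arrays, and YHK8 lost it without the 10 min array (adjusted p = 0.0623) or the 45 min array (0.071).

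GSH1 (YJL101C), which makes the first step of glutathione synthesis, stood at 10.47 at 0 min, at 12.50 and 12.49 early, and at 10.96 and 10.48 late. The 45 min array had reached the starting level, and the fall was 1.78 ± 0.26 (adjusted p = 0.0083). Without the 10, 15 or 45 min array its adjusted p was 0.0657, 0.0533 or 0.0649. YAP1 itself, the peroxide sensor's transcription factor, was at 11.03 and 10.98 early and at 9.89 and 9.62 late, against 9.75 at 0 min. It fell by 1.25 (adjusted p = 0.0184), a call lost without the 10, 15 or 45 min array (0.123, 0.0948 and 0.142). HSP30, a plasma membrane stress protein that limits the proton pump, fell by 1.78 (adjusted p = 0.00579), a call lost without the 45 min array (0.0512). RPN4, the transcription factor of the proteasome genes, fell by 0.82 (adjusted p = 0.0056), likewise lost without the 45 min array (0.0522).

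Iron and sulfur genes were in the returned group too. ISU2, a scaffold of iron-sulfur cluster assembly, was at 13.87 and 13.83 early and at 12.34 and 11.12 late, against 11.20 at 0 min. It fell by 2.12 ± 0.44 (adjusted p = 0.0323). MRS4, a mitochondrial iron carrier, fell by 1.82 (adjusted p = 0.0289). Both calls were lost without the 10, 15 or 45 min array (ISU2 0.173, 0.149 and 0.16, MRS4 0.135, 0.155 and 0.155). AFT2, a transcription factor of the iron regulon, was at 9.98 and 9.62 early and at 8.16 and 7.98 late, and fell by 1.73 ± 0.16 (adjusted p = 0.00174). HMX1, the heme oxygenase, fell by 1.90 (adjusted p = 0.00355). MUP3, a methionine permease, stood at 10.65 and 10.35 early, at 9.24 and 8.98 late, and at 8.84 at 0 min, a fall of 1.39 ± 0.17 (adjusted p = 0.00458). MET28, a cofactor of the methionine activator Met4, fell by 1.2 (adjusted p = 0.00383). AFT2, HMX1, MUP3 and MET28 kept their call without each of the 4 arrays.

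Among the stayed genes the peroxiredoxin TSA2 (YDR453C), which reduces peroxides with thiols, did not go down. It stood at 8.20 at 0 min, at 13.62 and 13.85 early, and at 13.88 and 13.89 late, which is 46.4-fold above the start early and 51.3-fold late. FRM2 (YCL026C-A), a nitroreductase-like gene, was at 7.27 at 0 min, at 13.40 and 13.49 early, and at 13.05 and 12.31 late. Its levels remained 42.6-fold above the start in the late phase. YDL218W, an uncharacterised gene, was 59.3-fold up early and 26.6-fold late, and OYE3, an old yellow enzyme, 48.6-fold early and 13.5-fold late. Their late minus early differences did not pass (adjusted p = 0.567 for TSA2, 0.349 for FRM2, 0.226 for YDL218W and 0.163 for OYE3).

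Other stayed genes were well on the way down. SRX1, the sulfiredoxin that repairs overoxidised peroxiredoxin, stood at 7.5 at 0 min, at 13.20 and 13.39 early, at 11.39 at 35 min and at 8.84 at 45 min. The late arrays stood far apart, and the difference of -3.18 ± 0.90 did not pass (adjusted p = 0.0891). It passed without the 35 min array (-4.46, adjusted p = 0.0307). CTA1 (YDR256C), the peroxisomal catalase, was at 5.79 at 0 min, at 10.11 and 10.29 early, and at 7.38 and 6.11 late. It fell by 3.45 ± 0.52 (adjusted p = 0.00926), the largest fall that passed over all probe sets, and it counts as stayed only through the 35 min array. Without the 10, 15 or 45 min array its adjusted p was 0.0657, 0.0656 or 0.0582. AAD6, an aryl alcohol dehydrogenase, fell by 3.01 (adjusted p = 0.0339), and FLR1, a drug exporter, by 2.38 (adjusted p = 0.0466). At 45 min both stood near their start, AAD6 at 8.32 against 8.24 at 0 min and FLR1 at 10.20 against 10.15. They too count as stayed only through the 35 min array. Both calls were lost without the 10, 15 or 45 min array, at adjusted p of 0.155 to 0.217. The AAD genes are close relatives, and their probe sets may share signal.

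**Figure D2:**
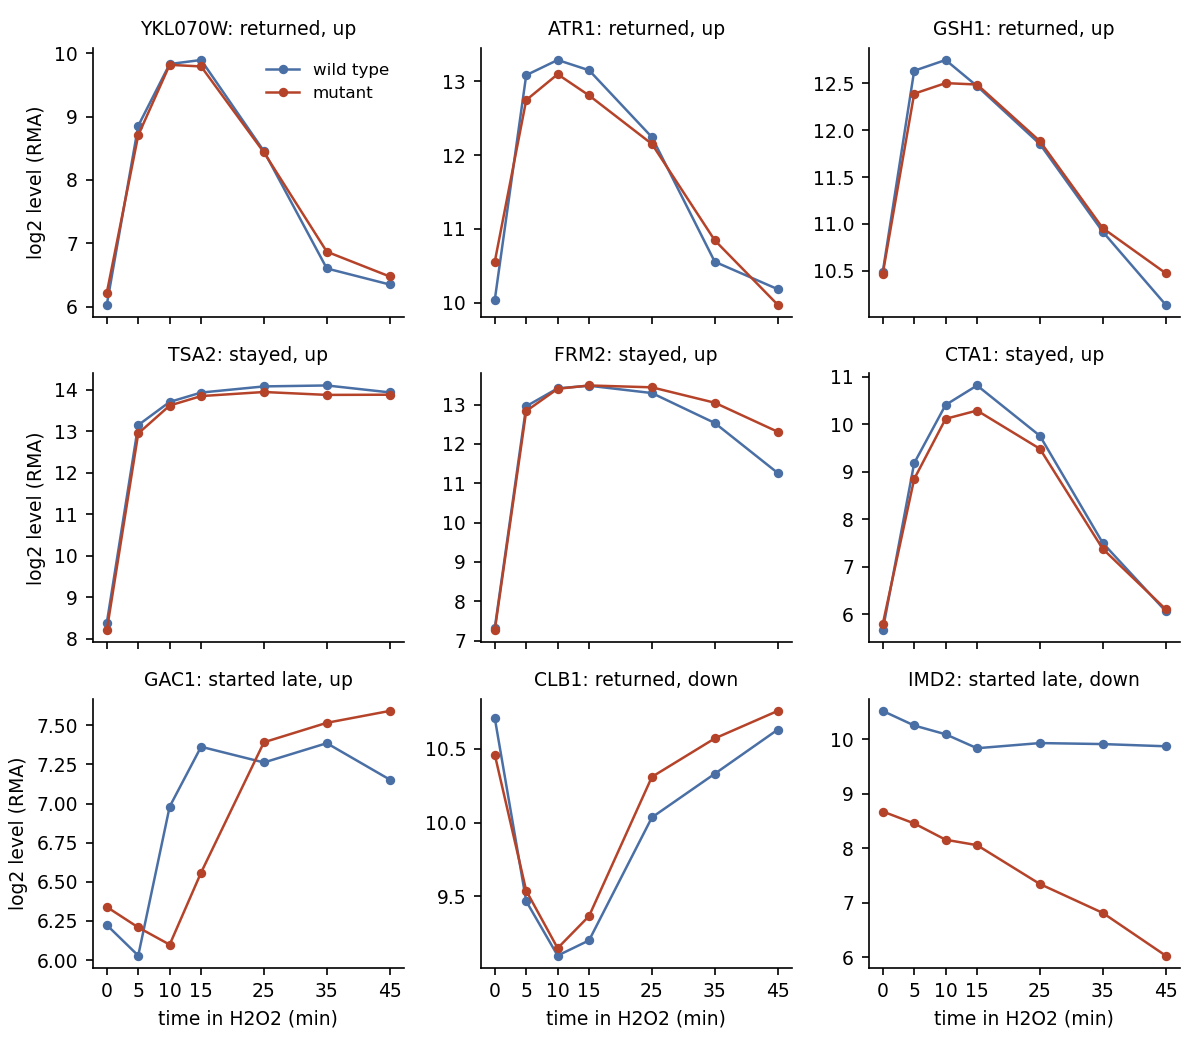
Log2 level by time in H2O2 of 9 genes in the mutant (red) and the wild type (blue), 1 array per point, each panel with its own y axis. YKL070W, ATR1 and GSH1 came back by 45 min in the mutant, TSA2 remained at 13.89, CTA1 fell from 10.29 at 15 min to 6.11 at 45 min, GAC1 rose after 10 min, CLB1 dipped and came back, and IMD2 went down to 6.03.

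Genes that were low early and then rose included a mitotic cyclin and amino acid and glucose transporters. SKS1, a protein kinase of glucose-limited growth, stood at 9.43 at 0 min, at 8.06 and 8.43 early, and at 9.70 and 9.96 late. It had the largest rise, 1.58 ± 0.23 (adjusted p = 0.0085), which lost its call without the 10 min array (0.0712) or the 45 min array (0.073). DIP5, the permease of acidic amino acids, was at 8.94 and 9.24 early and at 10.45 and 10.84 late, against 10.28 at 0 min, a rise of 1.55 ± 0.17 (adjusted p = 0.00377). CLB1 (YGR108W), a mitotic cyclin, was at 10.46 at 0 min, at 9.15 and 9.36 early, and at 10.57 and 10.76 late. It rose by 1.41 ± 0.13 (adjusted p = 0.00174), and both late arrays lay above the start. STP4, a zinc finger protein, rose by 1.48 (adjusted p = 0.00594), SFG1, a regulator of cell division and filamentous growth, by 1.19 (adjusted p = 0.005), and PDR12, an exporter of weak acids, by 1.14 (adjusted p = 0.00377). DIP5, CLB1, STP4, SFG1 and PDR12 kept their call without each of the 4 arrays. HXT1, the low-affinity glucose transporter, stood at 8.70 and 8.37 early and at 9.43 and 9.46 late, against 9.70 at 0 min. It rose by 0.91 (adjusted p = 0.0154), which was lost without the 15, 35 or 45 min array (0.0943, 0.0634 and 0.107).

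The 12 genes that stayed low include enzymes that break down amino acids. PUT1, the proline oxidase, stood at 11.28 at 0 min, at 9.30 and 8.91 early, and at 9.74 and 9.70 late. It rose by 0.61 ± 0.13 (adjusted p = 0.0363) and was still 2.95-fold below its start, but without the 15, 35 or 45 min array the call was lost (0.146, 0.127 and 0.185). ARO10, a decarboxylase of aromatic amino acid breakdown, was at 7.54 and 6.86 early and at 7.38 and 7.57 late, against 9.13 at 0 min. These ranges overlap, and the difference of 0.27 did not pass (adjusted p = 0.605). ARO9, the transaminase before it, changed by -1.63 early and -1.13 late, and MCH5, a riboflavin transporter, by -2.10 and -1.59 (adjusted p of the difference 0.174 and 0.275). AQR1, an exporter of acids and amino acids, went from -2.12 to -0.88 and rose (adjusted p = 0.0127), a call lost without the 10 min array (0.107) or the 45 min array (0.102).

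The late starters included genes of glycogen storage. GAC1 (YOR178C), a regulatory subunit that directs protein phosphatase Glc7 to glycogen synthase, stood at 6.34 at 0 min, at 6.10 and 6.56 early, and at 7.52 and 7.59 late. The early arrays lay on either side of the start, and the rise was 1.22 ± 0.18 (adjusted p = 0.00851). PGM2, the phosphoglucomutase, was at 10.19 and 10.34 early and at 11.32 and 11.42 late, against 10.13 at 0 min, a rise of 1.10 ± 0.19 (adjusted p = 0.0169). GSY1, a glycogen synthase, was at 9.55 and 9.57 early and at 10.50 and 10.58 late, against 9.65 at 0 min, a rise of 0.98 ± 0.15 (adjusted p = 0.00867). The 3 calls were lost without the 10 min array (0.0533, 0.124 and 0.0724) or the 45 min array (0.0705, 0.121 and 0.0746). PGM2 and GSY1 were also lost without the 15 min array (0.0751 and 0.0578), and PGM2 without the 35 min array (0.0598).

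EGO4, a small protein, had the highest late change, from 0.35 to 1.63 (adjusted p = 0.0446), and its 35 and 45 min arrays, 10.95 and 11.65, stood well apart. Its call was lost without the 10 min array (0.228), the 15 min array (0.162) or the 45 min array (0.268). CIT2, the peroxisomal citrate synthase of the retrograde response, was at 10.22 and 10.74 early and at 11.67 and 11.74 late, against 10.76 at 0 min. It rose by 1.22 ± 0.16 (adjusted p = 0.00539) and kept its call without each of the 4 arrays. The stress-induced genes TMA10, RGI1, DCS2 and FMP16 were at late changes of 1.59, 1.42, 1.28 and 1.26, and their late minus early differences did not pass (adjusted p = 0.0809, 0.0919, 0.0841 and 0.139). FIT2 and FIT3, cell wall mannoproteins that retain iron siderophores, rose from -0.02 to 1.01 and from 0.18 to 1.09 (adjusted p = 0.00174 and 0.00867). They fall outside the rule for named genes and were chosen after their values were seen.

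The 14 late falls contained 3 genes of IMP dehydrogenase, the enzyme that commits purines to GTP, and 3 ribosome assembly factors. IMD2 (YHR216W) stood at 8.67 at 0 min, at 8.15 and 8.06 early, and at 6.81 and 6.03 late. On the untreated array of the mutant's MMS course IMD2 was at 5.55, with a median of 10.52 over all probe sets. The start of 8.67 is thus that of 1 culture, and why the untreated levels differed was not tested. In the H2O2 course IMD2 went down at every time point. It ended 4.75-fold below that start on the mean of the late arrays, with a difference between the phases of -1.68 ± 0.23 (adjusted p = 0.00611). That call was lost without the 10 min array (0.0562). IMD3 went from -0.41 early to -0.91 late and fell (adjusted p = 0.0329), a call lost without each of the 4 arrays (0.0535 to 0.238). IMD4 went from -0.47 to -0.89 (adjusted p = 0.138), and it too was chosen after its values were seen. The IMD genes are near-identical in part, and the IMD2 probe set is one that its maker marks as prone to cross-hybridisation, so their signals may be mixed. ANB1, a translation factor expressed when heme is low, stood at 9.73 and 9.56 early and at 8.90 and 8.64 late, against 10.14 at 0 min. It fell by 0.87 (adjusted p = 0.00853), a call lost without the 10 min array (0.077) or the 45 min array (0.0666). PHO84, the phosphate transporter, went from -0.31 to -1.19 (adjusted p = 0.136). Of the ribosome assembly factors, DBP2 went from -0.23 to -0.92 and BMT6 from -0.74 to -0.96 (limma adjusted p = 0.18 and 0.607). AAH1 stood at 11.80 at 0 min, at 11.25 and 10.76 early, at 10.49 at 25 min, and at 10.75 and 10.88 late. Its mean change went from -0.79 early to -0.98 late (limma adjusted p = 0.834). AAH1 was thus already low at 15 min and lowest at 25 min. It counts as a late fall only because its early mean lay just short of the limit. The early mean of BMT6 was also close to the limit.

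The 33 gene lists were read as counts of calls beside the 3.56% of all probe sets that rose and the 3.8% that fell. Of 25 probe sets for Yap1-linked detoxification and export, 10 (40%) fell and none rose (17 and 0 at an unadjusted limma p below 0.05), and the median change from 0 min went from 1.01 early to 0.27 late. That count was 5, 5, 12 and 6 without the 10, 15, 35 and 45 min array. Of 28 peroxide and thiol defence genes, 5 fell (0, 0, 5 and 0 in the same fits). In this list 10 genes stayed up and 3 returned. The stayed members include TSA2, SRX1 and both catalases, CTA1 and CTT1, and the returned ones GSH1 and YAP1. CTT1, the cytosolic catalase, was at 9.90 and 10.30 early and at 9.35 and 8.87 late, against 8.28 at 0 min (adjusted p = 0.259). Sulfate assimilation and methionine genes had 5 falls among 37 (2, 4, 5 and 2 without each array in turn).

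The iron regulon moved in both directions. Of its 30 genes 6 fell and 3 rose, and without the 10, 15, 35 or 45 min array 2, 2, 6 and 2 fell and 1, 2, 3 and 2 rose. Its median change was 0.23 in both phases. The 5 genes that returned were AFT2, HMX1, ISU2, MRS4 and CCC2, a copper transporter that loads the ferroxidase Fet3. The 5 late starters were FIT2, FIT3, FET3, the ferroxidase itself, and the siderophore transporters ARN1 and SIT1. ARN1 already had an early change of 0.75, just under the limit of 0.81. FRE1, a reductase of the cell surface, and TIS11 stayed up. CCC2, FET3, ARN1, SIT1 and FRE1 fall outside the rule for named genes and complete these groups. TIS11, which binds mRNAs of iron-using proteins and speeds their decay, was at 9.16 and 10.16 early and at 9.11 and 8.41 late, against 7.63 at 0 min (adjusted p = 0.393).

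Of 21 trehalose and glycogen genes 6 rose and 2 fell, and the median change from 0 min went from 0.13 to 0.59. The rising count was 0, 1, 3 and 0 without the 10, 15, 35 and 45 min array. PIG2, a putative regulator of glycogen synthase, had been up early and fell by 0.93 (adjusted p = 0.0301), with adjusted p of 0.152, 0.124 and 0.075 without the 10, 35 and 45 min array. The Msn2/4 general stress list had 4 rises among 38 (0, 0, 2 and 0 without each array), with a median that went from 0.07 to 0.41, and 8 of its members started late.

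Among genes of mitosis and of the M/G1 boundary all limma calls were rises, with 2 and 0 falls at an unadjusted p below 0.05. Of 26 G2/M genes 8 rose, with a median change of -0.26 early and 0.06 late, and 8 of 23 M/G1 genes rose, with medians of -0.31 and -0.02. Without the 10, 15, 35 and 45 min array the counts were 1, 2, 2 and 1 for G2/M and 1, 3, 4 and 3 for M/G1. ASH1, the daughter-cell repressor of mating type switching, stood at 10.81 and 10.82 early and at 11.39 and 11.40 late, against 11.23 at 0 min, and rose by 0.58 ± 0.06 (adjusted p = 0.0025, kept without each array). RNR1, the large subunit of ribonucleotide reductase, rose by 0.52 (adjusted p = 0.00555) but stayed below its start at 11.10 and 11.16 against 11.54, and its call was lost without the 45 min array (0.0553). Of 36 G1/S genes 5 rose and 1 fell (1, 4, 3 and 2 rises without each array).

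Of 28 genes of hexose transport and glycolysis 8 rose (2, 2, 4 and 1 without each array), while the list's median stayed at -0.05 early and -0.04 late. HXK1, a hexokinase used when glucose is low, stood at 12.62 and 12.69 early and at 13.50 and 13.62 late, against 12.83 at 0 min. It rose by 0.91 (adjusted p = 0.00438, kept without each array). Among 28 genes of gluconeogenesis, the glyoxylate cycle and fat oxidation 6 rose and 2 fell (3, 2, 3 and 2 rises without each array). MDH2, the cytosolic malate dehydrogenase, was at 9.84 and 10.09 early and at 11.21 and 11.34 late, a rise of 1.31 ± 0.13 (adjusted p = 0.00228). MLS1, malate synthase of the glyoxylate cycle, fell by 1.13 (adjusted p = 0.004). MDH2 and MLS1 kept their call without each of the 4 arrays. Respiration and citric acid cycle genes had 6 rises among 50 (1, 1, 8 and 1 without each array). GCV1 and GCV2, subunits of the glycine cleavage complex, rose by 0.88 and 0.87 (adjusted p = 0.00283 and 0.00174, kept without each array).

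No call was made by limma among 144 probe sets of ribosome assembly factors or among 147 of cytosolic ribosomal proteins. At an unadjusted p below 0.05, limma had 3 falls and 0 rises among the assembly factors and 0 of either among the ribosomal proteins. The median change of the assembly factors was -0.29 early and -0.36 late, and that of the ribosomal proteins was -0.01 and 0.00. Among 34 proteasome genes only RPN4 was called, and among 30 chaperones only HSP30. Over all probe sets the median late minus early difference was 0.02, against 0.30 in the Msn2/4 list and -0.89 in the Yap1-linked list.

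**Figure D3:**
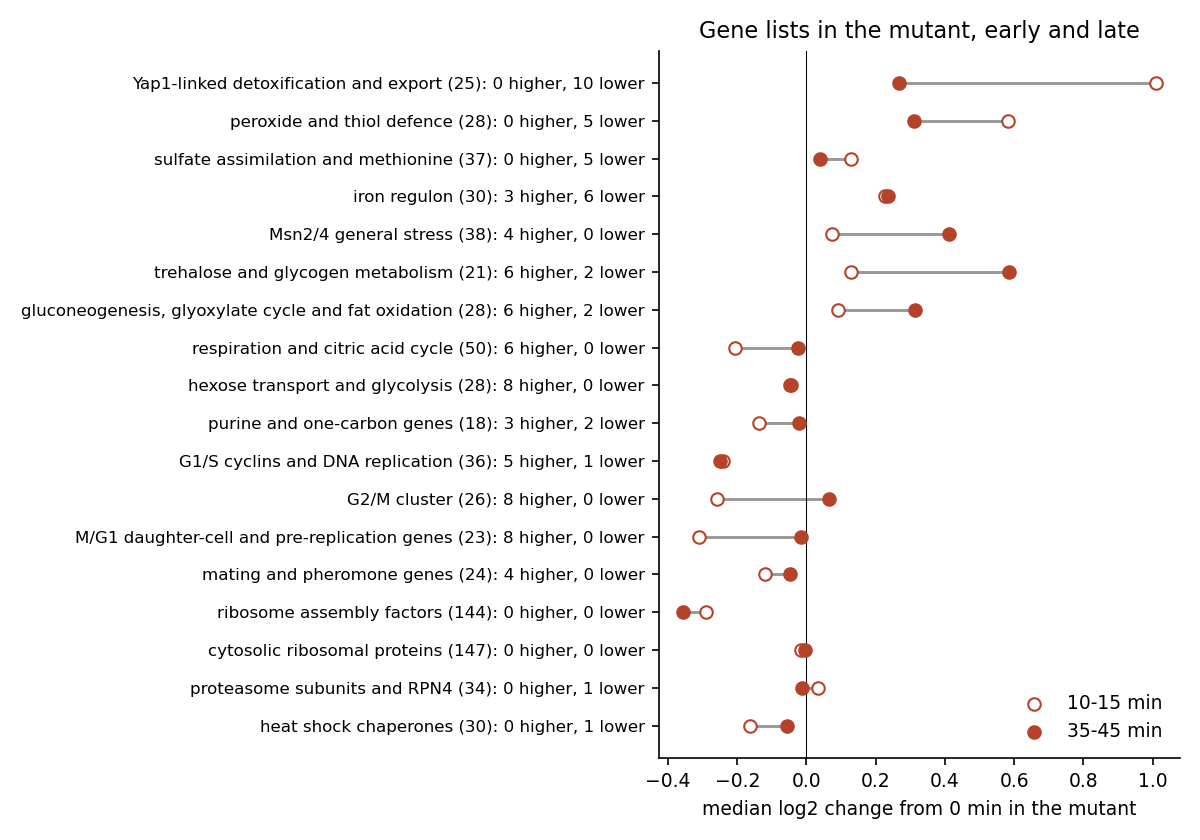
Median log2 change from 0 min of 18 gene lists in the mutant, early (open circles, mean of 10 and 15 min) and late (filled circles, mean of 35 and 45 min), with the number of probe sets and of limma calls between the phases beside each name. The Yap1-linked list moved down from 1.01 to 0.27, and the trehalose and glycogen list up from 0.13 to 0.59.

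The 5 and 25 min arrays were not used to form the groups. At 5 min the median change was already 1.14 in the returned-up genes and 2.0 in the stayed-up genes, and -0.02 in the late starters. At 25 min the returned-up genes were at 0.71, and for 108 of 116 the 25 min value lay between the early and the late mean. The stayed-up genes were then at 2.51, as high as early, and the late starters at 0.76, with 29 of 63 past the limit. By 45 min the median of the returned-up genes was 0.04 and 26 of the 39 stayed-up genes were still past the limit. Of the returned-up genes 35 lay below their 0 min level on the late mean, and the late starters ended at 0.97. The medians of the late starters were higher at each later time point, from 0.22 at 10 min to 0.91 at 35 min. The groups were formed on the early and late arrays, so differences between these phases follow from the selection. The 45 min values of the groups are likewise a description and no test.

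**Figure D4:**
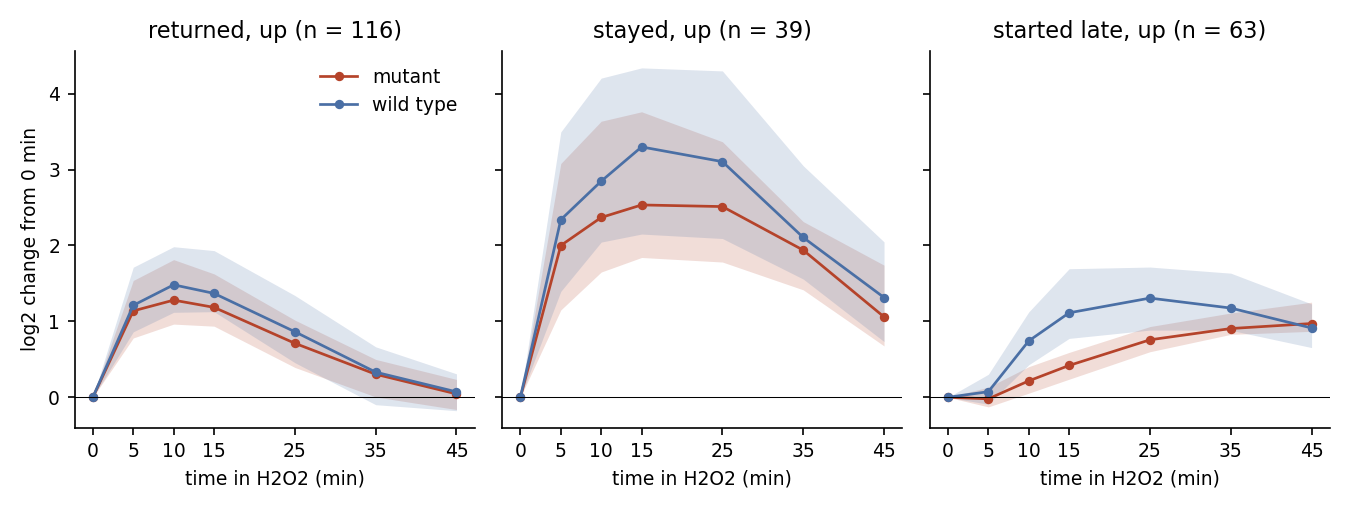
Median log2 change from 0 min (lines) with the range between the quartiles (shading) of the genes that returned, stayed or started late upwards, in the mutant (red) and the wild type (blue), by time in H2O2. The groups were chosen on the mutant arrays, where the medians at 25 min are 0.71, 2.51 and 0.76.

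The same genes were read in arrays that played no part in forming the groups. In the wild type 110 of the 116 returned-up genes were past the limit early and 9 late, against 6.13% and 3.51% of all probe sets. All 39 stayed-up genes were past it early and 34 late. Of the 63 late starters 37 were past it already at 10 and 15 min in the wild type, with a median of 0.90, and 47 at 35 and 45 min. By their rule none of them was past it early in the mutant, so the strains cannot be compared by this count. In another mutant culture, exposed to H2O2 for 7 min before phenanthroline, 87 of the returned-up genes, 35 of the stayed-up genes and none of the late starters were past the limit above an untreated start, against 2.71% of all probe sets. In the mutant's MMS course 59 of the returned-up, 35 of the stayed-up and 48 of the late starters were past it on the mean over the course, against 18.3% of all. YHK8 and HMX1, which were up early in H2O2, stood at -0.11 and 0.11 in MMS, while OYE3 was at 5.28 and TSA2 at 4.0.

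The change from the early to the late phase was tested for a difference between mutant and wild type. It passed for 2 probe sets, RSB1 and RTC2, both higher in the mutant (0.0364% of 5498), and for none in the other direction (0%), with 564 at an unadjusted p below 0.05. With the time point as a block pairing the strains' arrays, 48 passed, 37 higher and 11 lower in the mutant. That fit has fewer residual degrees of freedom than the 4 of the main fit. RSB1, a plasma membrane protein that exports sphingoid long-chain bases, stood at 7.00 and 6.80 early and at 7.59 and 7.62 late in the mutant. In the wild type it was at 7.90 and 7.97 early and at 7.32 and 7.30 late, so the direction was opposite, and the strain difference was 1.32 ± 0.12 (limma adjusted p = 0.0398). RTC2, a vacuolar transporter of basic amino acids, was at 9.48 and 9.50 early and at 9.74 and 9.84 late in the mutant, and at 10.30 and 10.17 and then 9.31 and 9.12 in the wild type. The strain difference was 1.32 ± 0.13 (adjusted p = 0.0398). At 0 min RTC2 was at 9.35 in the mutant and at 8.33 in the wild type. RSB1 was lost when any of the 8 early and late arrays of either strain was left out (0.0501 to 0.234), and RTC2 was lost in 7 of these 8 fits, the exception being the fit without the wild type's 35 min array (0.0474). In these arrays each strain has 1 culture, so strain and culture cannot be told apart. The study describes an independent repeat of the mutant measurements, which was not analysed here.

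**Figure D5:**
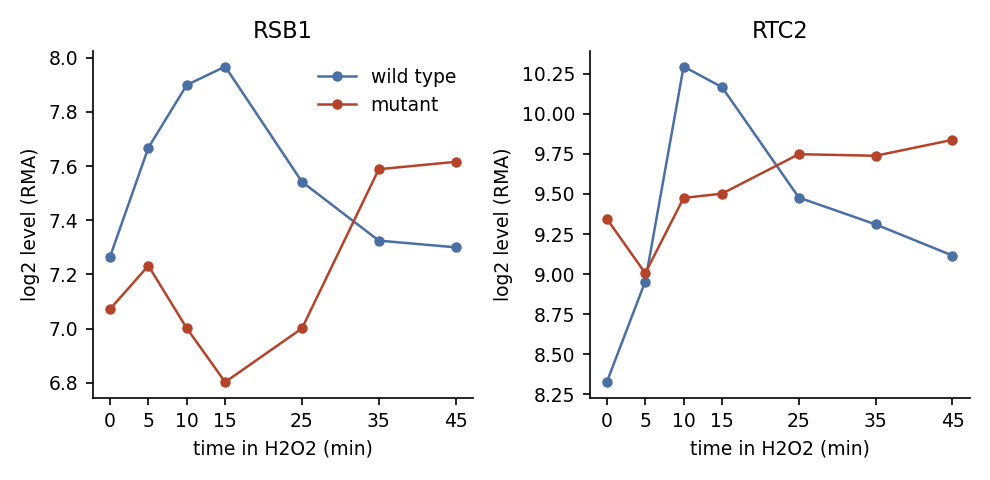
Log2 level of RSB1 and RTC2 by time in H2O2 in the mutant (red) and the wild type (blue), 1 array per point, each panel with its own y axis. RSB1 rose to 7.62 at 45 min in the mutant while it went down to 7.30 in the wild type, and RTC2 peaked at 10.30 at 10 min in the wild type only.

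For the other named genes no strain difference passed in the main fit. Whether any of them was among the 48 that passed with the time point as a block was not examined. IMD2, which fell by 1.68 in the mutant, changed by -0.07 in the wild type (adjusted p of the difference 0.187), and GSY1 rose by 0.98 in the mutant and changed by -0.56 in the wild type (adjusted p = 0.106). YKL070W fell by 3.14 in the mutant and fell by 3.39 in the wild type (adjusted p = 0.766). The median strain difference was 0.39 in the trehalose and glycogen list and -0.37 among ribosome assembly factors, against 0.01 over all probe sets. In the main fit no member of either list passed.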

How the data were processed

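The authors processed all arrays with RMA (robust multi-array average; version not given in the sources used here), and the deposited values are log2 levels. RMA sets arrays of a set to 1 distribution, so a global shift in mRNA cannot be seen. A second deposited table holds the authors' own fold changes and was not used. Of 10928 probe sets, the 5498 whose single Entrez ID is in the S. cerevisiae R64 gene table were tested (5449 genes, 12 symbols updated). limma 3.58.1 in R 4.3.3 was fitted to the 14 H2O2 arrays with a mean per strain and phase (0, 5, 10-15, 25 and 35-45 min), 4 residual degrees of freedom, and Benjamini-Hochberg adjustment over all tested probe sets at 0.05. The error comes from 10 against 15 min and 35 against 45 min and therefore contains change between those times; the 0 min array has no replicate. Named were the 10 largest called differences in each direction, the 6 largest per group and direction, called strain differences (up to 5), up to 4 members per list, RPO26, RPB4 and RPB7. Exceptions are marked. Members and the 33 lists were chosen with earlier results of these data known. Alternatives covered the arrays fitted, centring, quantile normalization, filters, eBayes settings, phase limits, a straight line in time, a time block, thresholds and each array left out. The number of arrays limits the precision. Figures used Python 3.11.15, numpy 2.4.6, pandas 2.3.3 and matplotlib 3.10.9.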

Additional observations from a re-analysis of the deposited data

Results flagged for a closer look

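Both results listed here differed between the strains under the same contrast, 35 and 45 min against 10 and 15 min in H2O2, by limma's test of the difference itself. For RSB1 the strain difference was 1.32 on the log2 scale, with a rise of 0.70 in the mutant and a change of -0.62 in the wild type. For RTC2 it was also 1.32, with a change of 0.30 in the mutant and a change of -1.02 in the wild type. The adjusted p was 0.0398 for each. Without 1 of the 8 early and late arrays of the strains it was 0.0501 to 0.234 for RSB1 and 0.0474 to 0.319 for RTC2.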

How the results depend on the processing

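Each phase has 2 neighbouring arrays, which limits every test, and where 1 was left out the lone array was assumed to vary like the other groups. Beyond fewer arrays and other thresholds, which act by construction, the cause of a change was not tested. Of 81 named genes with a call, all kept their sign in the 13 alternatives in which named genes were refitted. In each of these 13, 16 kept the call. The 405 calls between the phases became 181 with the 25 min array in the late phase, 678 with a straight line in time from 10 to 45 min, 176 at an adjusted p under 0.01, and 109 to 416 with 1 array left out; the mutant course alone gave 514. The 285 early calls became 147 with the 5 min array in the early phase, 111 at 0.01, and 103 to 327 with 1 array left out. The 29 late calls became 179 in the mutant course alone, 55 with a trended and robust variance, 2 at 0.01, 100 at 0.1, and 4 to 61 with 1 array left out. The 2 strain differences became 0 after quantile normalization, 0 with the 5 min array, 0 at 0.01, 5 at 0.1, 4 with a trended and robust variance, and 0 to 3 with 1 array left out. With the time point as a block pairing the strains' arrays, which leaves fewer residual degrees of freedom, there were 48 (37 higher, 11 lower). Returned-down genes numbered 31, but 17 with the 5 min array, 85 at a limit of 1.5-fold, 17 at 2-fold, and 30 to 48 with 1 array left out. Late starters were 63 up, but 114 at 1.5-fold and 27 at 2-fold, and 14 down, but 38 and 4. The 12 stayed-down genes were 32 at 1.5-fold. The medians of the 33 lists, each recomputed under several alternatives, moved beyond their spread in 34 cases and not in 296.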
